A study of Drosophila melanogaster with 2 samples.

Results

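The heterochromatic scaffolds of release 5 of the Drosophila melanogaster genome are the sequences of pericentromeric heterochromatin that were assembled and given to a chromosome arm but not joined to it. They are named 2LHet, 2RHet, 3LHet, 3RHet, XHet and YHet. Their bins were chosen by name alone, as every 10 kb bin of the deposited contact map on a chromosome whose name ends in Het. That gave 789 of the 12752 bins with di-tags, or 6.19% of them. The map is a Hi-C map of Kc cells (Kc167), an established Drosophila line, made from fixed nuclei cut with DpnII and religated, so that each sequenced di-tag is 1 contact between a pair of positions. There was 1 group, untreated Kc cells, with 2 replicates that the authors pooled into a single count per bin pair. No spread between replicates can therefore be given and no difference below was tested across samples. The 95% intervals cover counting error only.

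Pericentromeric heterochromatin in Drosophila consists largely of satellite repeats and remains of transposable elements, carries methylated lysine 9 of histone H3, and is bound by the protein HP1. In many Drosophila nuclei the pericentromeric regions of the chromosomes gather in a common compartment, the chromocentre. The Y chromosome is almost wholly heterochromatic, and Kc is known as a line of female origin. A scaffold can thus be followed in a contact map by 2 questions: whether it lies next to the centromere-proximal end of the arm it is named for, and whether it mixes with the pericentromeric regions of the other chromosomes.

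The scaffolds were thinly covered. Of the 34287983 di-tags of the raw map, 512423 (1.49%) had at least 1 end on a scaffold. The 2RHet scaffold had 258 bins with di-tags and 137729 di-tags, 3LHet had 240 bins and 194330 di-tags, and 3RHet had 225 bins and 155898 di-tags. The smaller 2LHet had 31 bins and 19344 di-tags, XHet had 16 bins and 21750 di-tags, and YHet had 19 bins and 60 di-tags. The median bin held 321 di-tags on 2LHet, 462.5 on 2RHet, 719 on 3LHet, 575 on 3RHet, 1395.5 on XHet and 2 on YHet, against 5094 to 6046.5 on the 5 large arms. In trans, that is with another named sequence, the median bins of the 5 scaffolds other than YHet held 221.5 to 931.5 di-tags, against 633 to 693 on the large arms. The shortfall was thus larger in total than in trans, and the median bin of XHet was above those of the arms in trans. For a scaffold, however, trans includes its own arm. Of the trans di-tags, 11040 of 17352 on XHet were with X and 9070 of 16418 on 2LHet were with 2L. The trans medians of scaffolds and arms are thus not like for like. Cis contacts are those within the same named sequence. The richest bin of each scaffold, with 5612 di-tags on 3LHet (600001 to 610000), 5176 on 2RHet (2810001 to 2820000), 4368 on 3RHet (1700001 to 1710000), 3296 on XHet (60001 to 70000) and 3253 on 2LHet (20001 to 30000), was near or below the median bin of an arm. Between 57.6% (YHet) and 94.1% (3LHet) of the possible bins of a scaffold held any di-tag, against 99.1 to 99.9% on the large arms.

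Most contacts of a scaffold left the scaffold. The cis share was 15.1% for 2LHet (Wilson interval 14.6 to 15.6%), 31.8% for 2RHet (31.6 to 32.1%), 32.5% for 3LHet (32.3 to 32.7%), 32.1% for 3RHet (31.9 to 32.3%) and 20.2% for XHet (19.7 to 20.8%). The large arms, which are many times longer, kept 77.6 to 81.0% of their di-tags in cis, and chromosome 4, itself small and rich in heterochromatin, kept 69.3%. Cis shares were not corrected for length, and 2LHet and XHet, with the lowest shares, span only 369 and 200.0 kb.

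The arm that shares the scaffold's name was the most frequent partner outside it. The 2LHet scaffold had 9070 di-tags with 2L and XHet had 11040 with X, or 46.9 and 50.8% of all their di-tags. Scaffold 3LHet had 47256 di-tags with 3L (24.3%), 3RHet had 36467 with 3R (23.4%) and 2RHet had 25606 with 2R (18.6%). Counted over the di-tags with large arms only, the own arm took 60.4% for 2LHet, 31.4% for 2RHet, 41.0% for 3LHet, 37.6% for 3RHet and 65.8% for XHet. If partners had been taken in proportion to the arms' raw trans totals, the own arm would have had 18.2 to 23.3%. Scaffold and own arm together took from 50.4% of the di-tags (2RHet) to 71.0% (XHet).

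**Figure D1:**
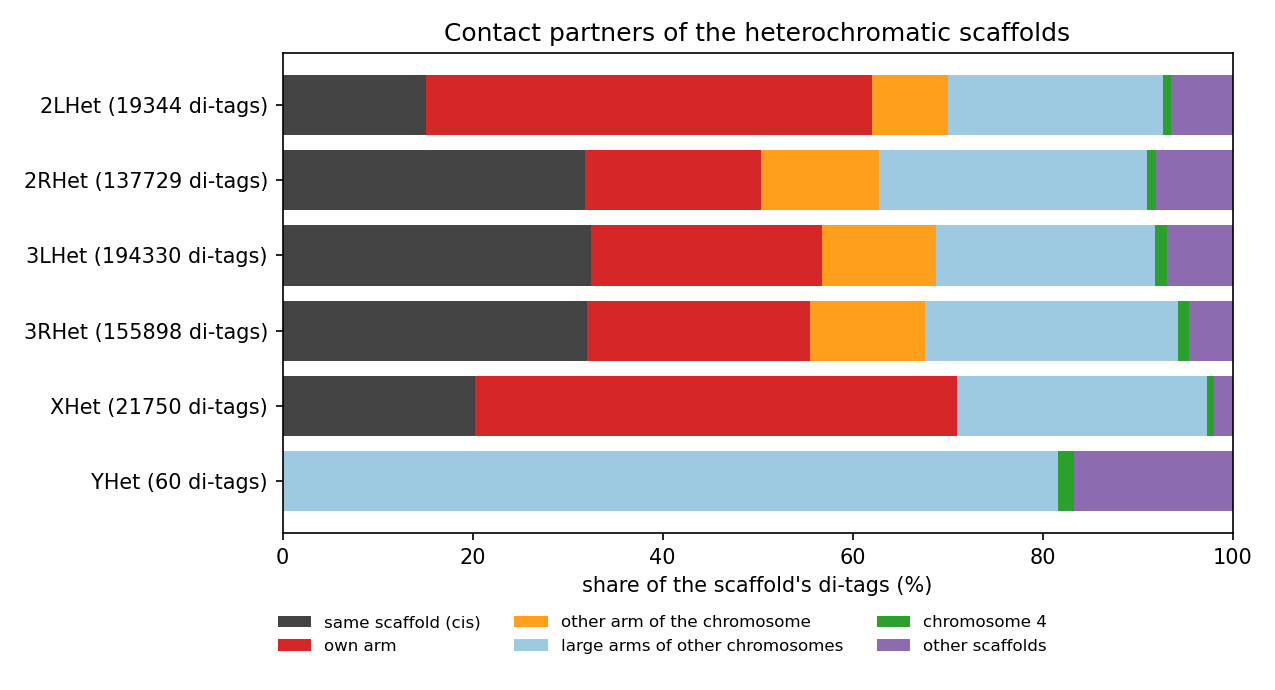
Share of the di-tags of each scaffold (x axis, in %) by the partner of the contact, with the number of di-tags beside each name. The own arm (red) took 46.9% on 2LHet and 50.8% on XHet but 18.6% on 2RHet, and the 60 di-tags of YHet included none in cis.

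To ask where on the arms the scaffolds made their contacts, each large arm was divided into windows of 1 Mb counted from its centromere-proximal end, which is the high-numbered end of 2L, 3L and X and the low-numbered end of 2R and 3R. The 119 windows were compared as observed over expected. Expected is the number of di-tags a window would have if the scaffold's contacts with the large arms were spread in proportion to the raw trans totals of the windows. A value of 1 is the mean of the map for that scaffold, and 2 or more is called enriched here.

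All 5 scaffolds other than YHet had their highest window at the centromere-proximal end of their own arm. The proximal window of X (release 5, X:21430001-22422827) held 7812 di-tags with XHet, where 104 were expected, at an observed over expected value of 75.1 (exact Poisson interval 73.4 to 76.8). The proximal window of 2L (2L:22010001-23010000) held 5870 with 2LHet, at 38.6 (37.6 to 39.6). That of 3L (3L:23540001-24540000) held 15345 with 3LHet, at 20.0 (19.7 to 20.3). For the arms that begin at the centromere the values were lower, 14.9 (14.6 to 15.3) for 2RHet with its 7708 di-tags in the first Mb of 2R, and 7.76 (7.61 to 7.92) for 3RHet with its 9311 in the first Mb of 3R. The order XHet, 2LHet, 3LHet, 2RHet, 3RHet is one of intervals that do not overlap, although these cover counting error only. Each value is taken over a whole scaffold, and XHet and 2LHet are the shortest of the 5. Parts of longer ones stood as high, the last 30 kb of 2RHet at 83.8 and the first 250 kb of 3LHet at 38.9. With bin numbers in place of trans totals 2RHet and 3RHet stood at 11.3 and 11.4, with overlapping intervals. Without any correction the same windows held 5.37 di-tags per bin pair for XHet, 1.93 for 2LHet, 0.639 for 3LHet, 0.414 for 3RHet and 0.302 for 2RHet, against 0.0886, 0.0409, 0.0406, 0.0364 and 0.0267 over all windows. For 3RHet the rank depended on the correction: with the whole totals of the windows in place of the trans totals, the proximal end of 3L stood at 10.4 and that of 3R at 8.80.

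Contact fell off steeply along the own arm. From the first Mb to the second, the value went from 75.1 to 4.38 for XHet, from 38.6 to 4.04 for 2LHet, from 20.0 to 6.97 for 3LHet, from 14.9 to 4.54 for 2RHet and from 7.76 to 3.17 for 3RHet. The decline was thus 17.1-fold for XHet and 9.56-fold for 2LHet, but between 2.45-fold and 3.28-fold for the 3 larger scaffolds. From the second Mb to the third the value fell further, to 2.06 for 3LHet, 1.82 for 2RHet, 1.74 for 2LHet, 2.45 for XHet and 2.37 for 3RHet. The first own-arm window below 1 began 9 Mb from the proximal end for XHet, 10 Mb for 2LHet, 11 Mb for 2RHet, 13 Mb for 3LHet and 14 Mb for 3RHet. The most distal window of the own arm stood at 0.412 to 0.701.

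Enriched windows were few and lay near centromeres. Of 119 windows, 3 (2.52%) reached 2 for each of 2LHet, 2RHet, 3LHet and XHet, and 5 (4.20%) for 3RHet. For XHet and 3LHet these were the 3 proximal Mb of the own arm, the third at 2.45 on X and 2.06 on 3L. For 2LHet they were the first, the second and the fourth Mb of 2L, the last at 2.22 (1.98 to 2.47), with the third Mb between them at 1.74. For 3RHet they were the 4 proximal Mb of 3R, at 7.76, 3.17, 2.37 and 2.19, and the proximal Mb of 3L at 3.43. For 2RHet they were the first and second Mb of 2R and the proximal Mb of 2L. No enriched window lay on another chromosome than the scaffold's own, though the proximal end of 3L came to 2.00 (1.88 to 2.12) with 2RHet, just under the limit at 1084 di-tags. Of these, 523 came from a single stretch of 480 kb of 2RHet that is described below.

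The lowest windows lay on other chromosomes. They were the distal piece of 3L from 540001 to 1540000 for 2LHet (53 di-tags, 0.315) and from 2540001 to 3540000 for 2RHet (523 di-tags, 0.562), the distal end of 2R from 20000001 to 21130000 for 3LHet (547 di-tags, 0.518), X from 10430001 to 11430000 for 3RHet (613 di-tags, 0.582) and 3R from 21000001 to 22000000 for XHet (33 di-tags, 0.263). Outside the own arm and all proximal windows, the median window stood at 0.406 for XHet, 0.467 for 2LHet, 0.697 for 3LHet, 0.752 for 2RHet and 0.756 for 3RHet. Windows far from any centromere thus stood lower for the scaffolds with a higher value at the own proximal end, the values of each scaffold having a weighted mean of 1.

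**Figure D2:**
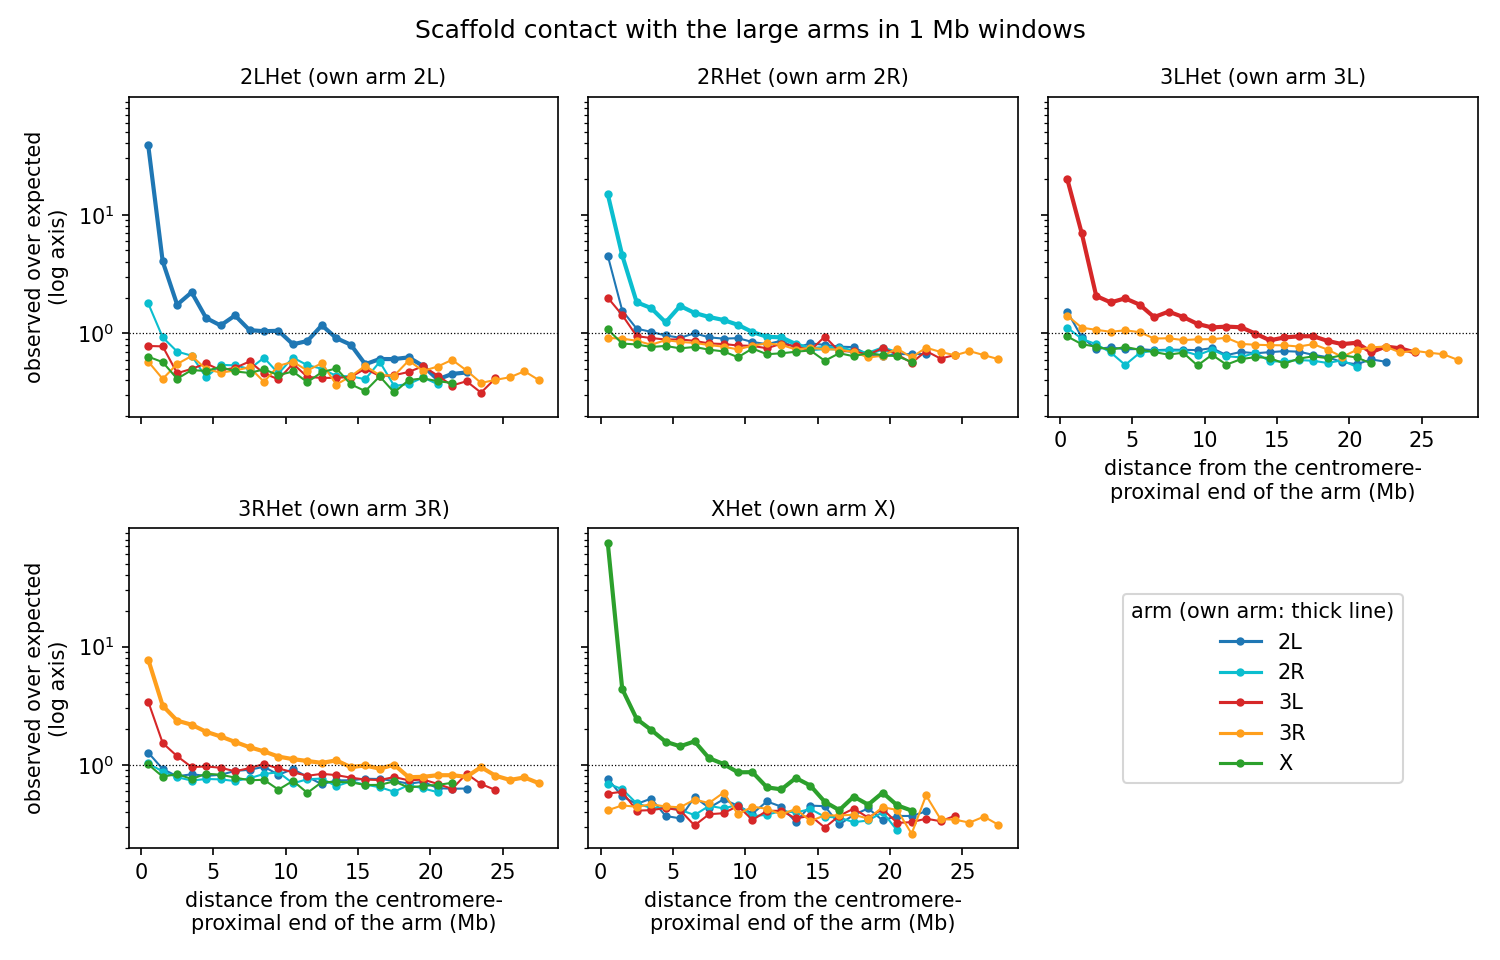
Observed over expected contact of 5 scaffolds with each 1 Mb window of the large arms (y axis, logarithmic, no unit) by distance from the centromere-proximal end of the arm in Mb (x axis). The thick line of the own arm starts between 7.76 (3RHet) and 75.1 (XHet) and first falls below 1 at 9 to 14 Mb, and a smaller proximal peak stands on the other arm of the chromosome for 2RHet (2L, 4.52) and 3RHet (3L, 3.43).

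The bin pairs with most di-tags between a scaffold and an arm also joined each scaffold to its own proximal end. Bin 1 to 10000 of XHet had 80 di-tags with X from 22410001 to 22420000. On 2LHet the bin from 20001 to 30000, the richest of that scaffold with 3253 di-tags, had 77 with 2L from 22890001 to 22900000. The end bins of 3RHet from 2470001 to 2480000 and from 2510001 to 2517507 had 107 and 100 di-tags with the first 10 kb of 3R. Bin 3210001 to 3220000 of 2RHet had 58 with 2R from 20001 to 30000. The highest pair of all was 3LHet from 220001 to 230000 with 3L from 24270001 to 24280000 at 268 di-tags, whereas the next pairs of 3LHet held 36 and 29. Counting no more than 3 di-tags for any bin pair lowered the value of the own proximal end from 75.1 to 32.8 for XHet, from 38.6 to 20.8 for 2LHet, from 20.0 to 17.0 for 3LHet, from 14.9 to 9.58 for 2RHet and from 7.76 to 5.27 for 3RHet.

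The proximal ends of the other arms were compared next. Summed, the 4 proximal windows of the other arms stood at 0.595 (0.534 to 0.660) for XHet, 0.874 (0.792 to 0.962) for 2LHet, 1.31 (1.27 to 1.34) for 3LHet, 1.65 (1.61 to 1.70) for 3RHet and 2.18 (2.13 to 2.23) for 2RHet. The own proximal end was higher by 126-fold for XHet (exact binomial interval 114 to 141), 44.2-fold for 2LHet (40.0 to 48.9), 15.3-fold for 3LHet (14.8 to 15.8), 6.84-fold for 2RHet (6.62 to 7.08) and 4.69-fold for 3RHet (4.53 to 4.86). Over 9 other settings, among them other corrections, window sizes and a limit of 3 di-tags per bin pair, the ratio ranged from 36.8 to 144 for XHet, 18.3 to 84.8 for 2LHet, 11.3 to 31.3 for 3LHet, 4.31 to 8.60 for 2RHet and 2.69 to 7.68 for 3RHet, the lowest values for XHet, 2LHet and 2RHet being those with the limit. Since the expected values sum to the scaffold's own total, a large own share lowers all other windows. With the own arm left out of observed and expected, an alternative chosen after the values were seen, the 4 windows stood above 1 for all 5 scaffolds, at 1.42 (1.28 to 1.58) for XHet, 1.77 for 2LHet, 1.76 for 3LHet, 2.03 for 3RHet and 2.59 for 2RHet. The values under 1 for XHet and 2LHet thus turned with that choice.

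Part of this was contact across the centromere with the other arm of the same chromosome. The proximal end of 2L stood at 4.52 (4.38 to 4.67) for 2RHet and that of 3L at 3.43 (3.29 to 3.57) for 3RHet. In the other direction the values were lower, at 1.79 (1.53 to 2.08) for 2LHet with 2R and 1.41 (1.35 to 1.47) for 3LHet with 3R. The latter lay below the 1.52 of 3LHet with the proximal end of 2L, on another chromosome. On this scale contact with the other arm was thus higher from the right-arm scaffolds than from the left-arm ones. For chromosome 3 the uncorrected counts were close, 2212 (0.0983 per bin pair) for 3RHet with 3L and 2011 (0.0838) for 3LHet with 3R. The trans totals of these windows were 51981 for 3L and 96569 for 3R. On 2LHet the own arm took 60.4% of the di-tags with large arms, which lowers its value with 2R. No value without the own arm was computed for that window alone.

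**Figure D3:**
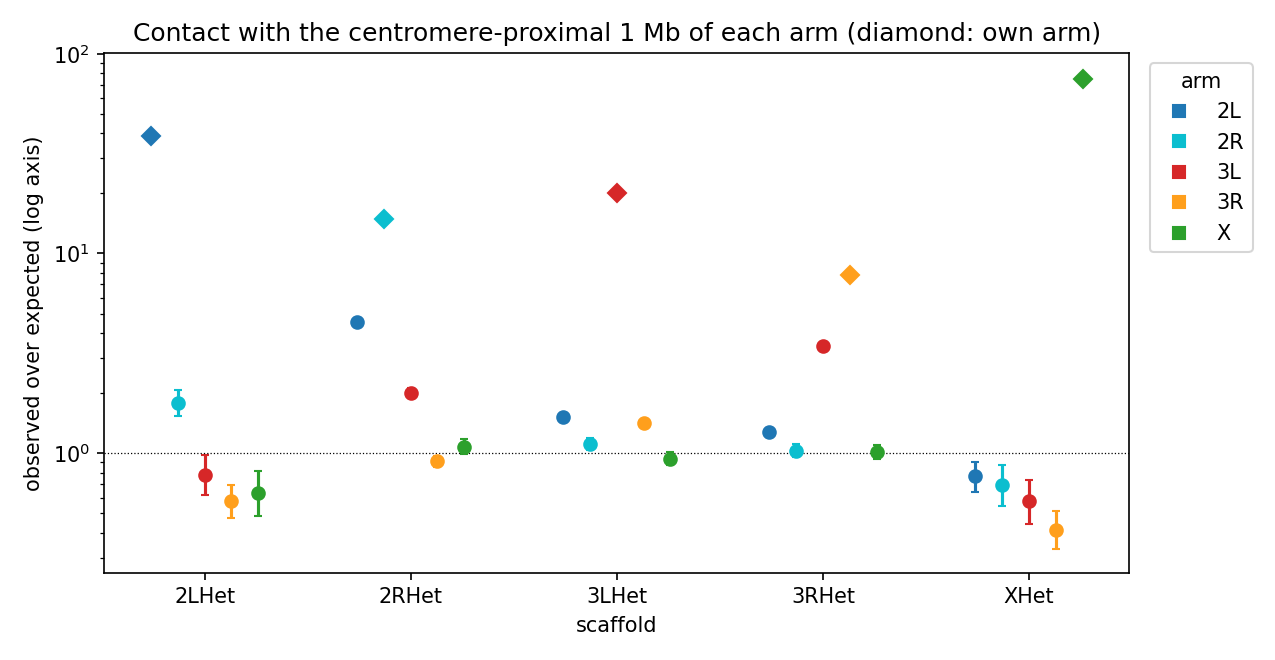
Observed over expected contact (y axis, logarithmic, no unit) of 5 scaffolds (x axis) with the centromere-proximal 1 Mb of each large arm, with exact Poisson intervals for counting error. Diamonds mark the own arm, at 7.76 to 75.1, while all other arms lie between 0.415 (XHet with 3R) and 4.52 (2RHet with 2L).

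The proximal ends of other chromosomes were then taken alone. With both arms of the own chromosome left out of observed and expected, these ends stood at 1.36 (1.20 to 1.55) for 2LHet, 1.42 (1.28 to 1.58) for XHet, 1.49 (1.43 to 1.55) for 3RHet, 1.61 (1.55 to 1.68) for 2RHet and 1.81 (1.75 to 1.87) for 3LHet. The same measure was taken for the arms themselves as background. The 114 windows of the arms other than the proximal ones stood at 0.584 to 1.40 towards the proximal ends of other chromosomes, with a median of 0.799. The 5 proximal windows stood at 1.19 to 1.70. The scaffolds XHet, 3RHet, 2RHet and 3LHet were above all 114 non-proximal windows and 2LHet was above 113 of them, the exception being the second Mb of 3L at 1.40. On this scale the scaffolds lay in or just above the range of the proximal arm windows. The value of 2RHet rests on 2549 di-tags. Of these, 523 joined the proximal end of 3L to the stretch of 480 kb of 2RHet described below. A further 282 joined the stretch to the proximal end of 3R and 96 to that of X. The value without that stretch was not computed, so the place of the rest of 2RHet against the 114 windows is not given.

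The scaffolds also contacted each other, in an uneven way. Here expected is the product of the trans totals of both scaffolds over that of the map. These totals include di-tags with the own arm, 11040 of 17352 for XHet and 9070 of 16418 for 2LHet, which raises the expected value. The trans totals of the arms include di-tags with their own scaffold too, but in a smaller share, as 47256 of 1596525 on 3L. They also include the other arm of the chromosome, with 538387 between 3L and 3R. The 10 pairs of large arms stood at 1.12 to 1.54. Over the 10 pairs of scaffolds other than YHet the median was 0.925. A median under that range therefore does not show less contact between scaffolds than between arms. The highest by this correction was 2RHet with 3LHet, named for different chromosomes, with 8236 di-tags at 5.55 (5.43 to 5.67). It was followed by the scaffolds of both arms of chromosome 2, 2LHet with 2RHet, with 806 di-tags at 4.34 (4.04 to 4.65). The pair of chromosome 3, 3LHet with 3RHet, had 4884 di-tags at 2.92 (2.84 to 3.00), and 2RHet with 3RHet had 1882 at 1.57 (1.50 to 1.64). The 2LHet scaffold stood at 0.967 with 3LHet and at 0.883 with 3RHet, intervals that include 1. The 4 pairs with XHet held 21 to 143 di-tags and stood at 0.485 to 0.728. With whole totals in place of trans totals these 4 pairs stood above 1, at 1.38 to 2.52, as did 2LHet with 3LHet at 3.04 (2.67 to 3.44) and with 3RHet at 2.79 (2.41 to 3.23), so the place of these 6 pairs against 1 depended on the correction. The rank of the highest did too, since with whole totals 2LHet with 2RHet stood at 13.9 and 2RHet with 3LHet at 12.3. With at most 3 di-tags per bin pair 2RHet with 3LHet stood at 2.84, below 2LHet with 2RHet at 4.00 and 3LHet with 3RHet at 2.90.

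Chromosome 4 was set on the scale of the arm windows. It stood at 1.25 (1.20 to 1.30) for 3LHet with 2346 di-tags, 1.15 (1.10 to 1.21) for 3RHet with 1826, and 1.00 (0.949 to 1.06) for 2RHet with 1333. The values for 2LHet and XHet, with 146 di-tags each, were 0.596 and 0.533. All 5 were above the scaffold's median window outside the own arm and the proximal ends.

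Single bins of 3 scaffolds were uniform in their preference. Over bins with at least 50 di-tags to the large arms, all 25 bins of 2LHet, all 201 of 3LHet and all 15 of XHet had the own proximal end as the highest of the 5 proximal ends. Their own values ran from 15.5 to 47.2 on 2LHet, from 5.36 to 68.9 on 3LHet and from 48.9 to 96.6 on XHet. The other 2 scaffolds were mixed. On 2RHet, 118 of 201 bins had 2R highest, 57 had 2L and 22 had 3L. On 3RHet, 81 of 193 bins had 3R highest while 100 had 3L. These counts use the correction by trans totals, 96569 for the proximal end of 3R and 51981 for that of 3L. They were not repeated without it.

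Position along the scaffold ordered these preferences, as 250 kb steps showed. On 3LHet the value with the proximal end of 3L declined from 38.9 in the first 250 kb to 7.96 between 2.25 and 2.5 Mb, and then stood at 11.0 in the last 50 kb. Its values with the other proximal ends stayed between 0.653 and 1.88 throughout. On 2LHet the value with 2L was 41.3 in the first 250 kb and 26.2 in the rest. The low-numbered ends of 2LHet and 3LHet thus had the most contact with their arms.

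The 3RHet scaffold changed along its length. In its first 1.5 Mb (6 steps) the proximal end of 3R stood at 2.08, with steps from 1.77 to 2.49, and that of 3L at 3.44 (3.24 to 3.66), with steps from 2.86 to 3.87. In each of these 6 steps the ratio of 3R to 3L was below 1, from 0.545 to 0.785, with an interval below 1. Uncorrected, the order was the reverse, with 1202 di-tags to 3R and 1071 to 3L, from windows of 100 bins each. The ratio below 1 thus rests on the trans totals of these windows, 96569 for 3R and 51981 for 3L. In the remaining 5 steps the value with 3R was 13.0 (12.8 to 13.3), while that with 3L was still 3.41 (3.22 to 3.61). The change fell between neighbouring steps, from 2.34 at 1.25 to 1.5 Mb to 12.3 at 1.5 to 1.75 Mb, and the last, short step reached 25.7. Contact of 3RHet with the opposite arm 3L was therefore nearly level along the scaffold, and contact with its own arm was concentrated in the high-numbered part.

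**Figure D4:**
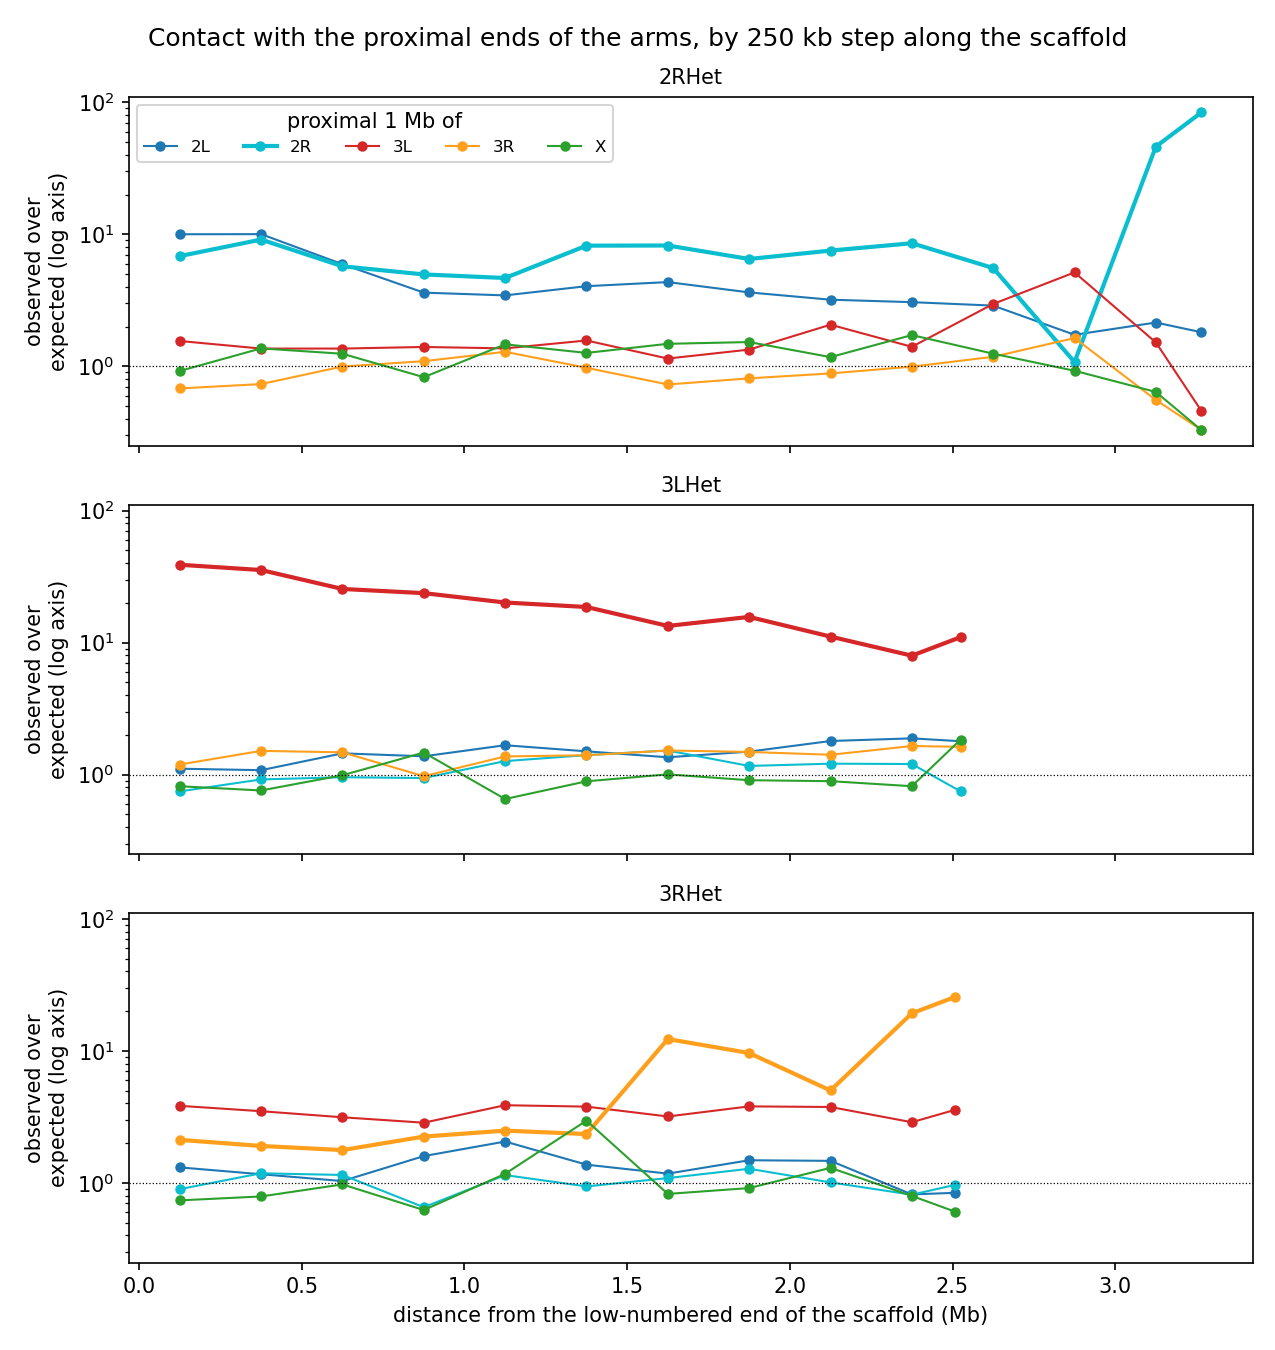
Observed over expected contact with the centromere-proximal 1 Mb of each large arm (y axis, logarithmic, no unit) for 250 kb steps along 2RHet, 3LHet and 3RHet (x axis, distance from the low-numbered end of the scaffold in Mb). Contact with the own arm (thick line) falls along 3LHet from 38.9 to 7.96, rises on 3RHet from 2.34 to 12.3 at 1.5 Mb, and on 2RHet drops to 1.08 before it reaches 83.8.

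The 2RHet scaffold fell into several parts. In its first 0.75 Mb the proximal end of 2L, at 8.72 (8.35 to 9.11), was above that of 2R, at 7.14 (6.72 to 7.58), a ratio of 2R to 2L of 0.818 (0.759 to 0.882). Of the 3 steps the ratio was below 1 with its interval only in the first. From 0.75 to 2.5 Mb the order was the reverse, 7.20 (6.81 to 7.61) with 2R and 3.72 (3.50 to 3.96) with 2L. From 3.0 Mb to the end at 3.28 Mb contact with 2R was 48.3 (47.0 to 49.7) and contact with 2L 2.13 (1.91 to 2.35), and the last 30 kb reached 83.8 with 2R. Between 2.75 and 3.0 Mb contact with 2R was 1.08 and contact with the proximal end of 3L was 5.14.

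That exception was followed bin by bin, after its value had been seen. The longest run of 2RHet bins with more di-tags to 3LHet than to 2R reached from 2610001 to 3090000 (480 kb, 32 bins with di-tags). Of the 204 bins of 2RHet with at least 50 trans di-tags, 24 had more with 3LHet than with 2R, and all 24 lay in this run. The bin at its low end, from 2610001 to 2620000, had 19 di-tags with 3LHet and 18 with 2R, and the nearest such bin outside, from 2590001 to 2600000, had 1 and 22. At its high end the bin from 3080001 to 3090000 had 23 and 4, and the nearest outside, from 3110001 to 3120000, had 0 and 86. The change at both edges was thus within a few bins. The 3 bins of 2RHet with most di-tags (5176, 3729 and 3259) lay in this stretch.

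The stretch held 24.1% of the trans di-tags of 2RHet and 83.0% of the di-tags between 2RHet and 3LHet. Its contact with 3LHet was 19.1 (18.6 to 19.5) on the scale of scaffold pairs, against 1.41 for the part of 2RHet before it and 0.656 for the part after. Without it, the pair 2RHet with 3LHet stood at 1.24 (1.18 to 1.31) in place of 5.55. On 3LHet the contacts of the stretch were gathered at the high-numbered end. Of its 6833 di-tags with 3LHet, 3781 (55.3%) fell between 2.25 and 2.5 Mb at 56.6, and the last 50 kb stood at 78.3, against 3.22 in the first 250 kb.

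With the rest of 2RHet the contact of the stretch was near the value expected from trans totals or below it. It had 172 di-tags with the part before it, at 1.12 (0.962 to 1.31), and 15 with the part after it, at 0.360 (0.202 to 0.594). The parts on either side of it had 696 di-tags with each other, at 6.77 (6.27 to 7.29), although they lie farther apart in the numbering. Within the stretch contact was 161 (156 to 165), with 157 and 171 within the parts before and after. These spans differ in length, so their values are not like for like. In 250 kb steps, the step from 2750 kb, inside the stretch, stood at 211 with itself. The steps that begin below it stood at 483 to 923 with themselves. The step from 3000 kb, which crosses the high edge of the stretch, stood at 125. With the proximal end of 2R the stretch stood at 0.967 (0.778 to 1.19), against 7.21 before and 56.0 after it. With that of 3L the stretch stood at 5.29 (4.85 to 5.76), against 1.43 and 0.671. The di-tags with 3LHet and 2R chose the stretch, so its values with these describe the choice. The 250 kb step that prompted the search was singled out by its values with the proximal ends of 2R and 3L. It gave 406 of the 523 di-tags of the stretch with the proximal end of 3L. The value with 3L thus belongs to the choice too. Contact with the rest of 2RHet was not used in the choice, and in it the stretch stood apart from the scaffold in which it is numbered. The counts do not tell where the stretch lies in the genome of Kc cells, so its values, and that of the pair 2RHet with 3LHet, hold for the numbering of release 5.

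A milder change in contact fell around the step of 2RHet from 0.5 to 0.75 Mb. The 2 steps below 0.5 Mb had values of 6.4 to 12.8 with each step between 0.75 and 2.5 Mb, whereas the steps above 0.75 Mb had values of 64.0 or more with each other up to 2.5 Mb. The step between them had high contact with both sides, 71.0 and 187 with the steps below and 265 with the step above. Within 3LHet contact declined with distance, from 146 between the first 2 steps to 4.3 between the first and the step at 2.25 Mb.

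**Figure D5:**
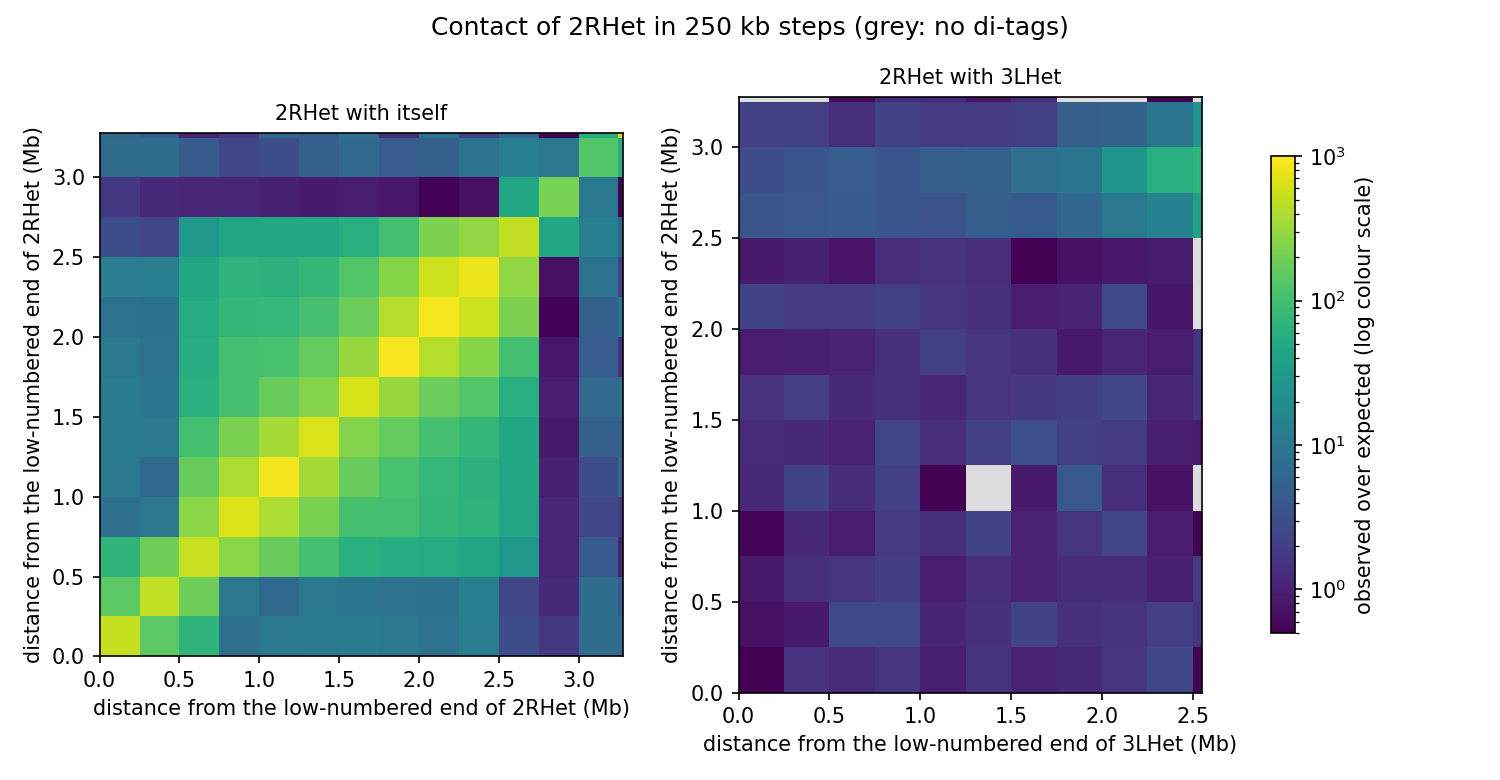
Observed over expected contact between 250 kb steps of 2RHet (left) and between 2RHet and 3LHet (right), as colour on a logarithmic scale, with distance from the low-numbered end in Mb on both axes. The step at 2.75 to 3.0 Mb of 2RHet is dark against the steps below 2.5 Mb (0.5 to 1.7) and bright with the high-numbered end of 3LHet (up to 71.0).

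A few single bins stood apart and were picked after their values were seen, as bins with at least 15 di-tags to the proximal end of an arm of another chromosome, a value of at least 5 there and a lower own value. The bins screened, those with any di-tag to the large arms, were 254 on 2RHet, 224 on 3RHet, 238 on 3LHet, 31 on 2LHet and 16 on XHet. There were 12 such single bins, and 9 lay in the stretch of 2RHet and pointed to 3L. The other 3 lay on 3RHet. Its bin from 1410001 to 1420000 had 79 di-tags with the proximal end of X, at 35.9, of which 30 fell in the single bin from 22120001 to 22130000. It held 79 of the 111 such di-tags of its 250 kb step, which stood at 2.96 with X. The bins from 870001 to 880000 and from 1230001 to 1240000 had 20 and 28 di-tags with the proximal end of 2L, at 8.37 and 9.67, and in the latter 17 of the 28 were with 1 bin of 2L, from 22860001 to 22870000.

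The YHet scaffold was nearly empty. It had 60 di-tags in all, spread over 57 bin pairs, none of which held more than 2. That is 322-fold fewer than on 2LHet, the next smallest total, and per bin with di-tags YHet had 3.16 against 1359 on XHet, a 430-fold difference. None of the 60 lay in cis, which allows a cis share of up to 5% as 3 of 60 di-tags (upper Wilson bound 6.02%). Of the 60, 49 were with large arms, 10 with other scaffolds and 1 with chromosome 4. Arm 2L had 21, 2R had 10, and 3L, 3R and X had 6 each.

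These few di-tags were not even over the bins of YHet. The bin from 210001 to 220000 had 14, that from 70001 to 80000 had 12 and that from 150001 to 160000 had 9. The proximal end of 2L had 11 di-tags where 0.496 were expected, at 22.2 (11.1 to 39.7), but 10 of the 11 came from the bin from 210001 to 220000, which had 11 of its 14 di-tags with 2L, all between 21370001 and 22840000. Without that bin YHet had 46 di-tags and 1 of them with the proximal end of 2L. The other proximal ends had none, and no window beside that of 2L held more than 2. Among the scaffolds 3RHet had 5 of the 60 where 0.765 were expected, at 6.53 (2.12 to 15.2), and 3LHet had 3, at 3.16 (0.652 to 9.24).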

How the data were processed

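Hi-C was performed on Kc cells in 2 replicates. Following the study's methods, the authors mapped reads to release 5 of the genome (dm3) with HiCUP and binned the contacts at 10 kb. The name of the deposited table shows both replicates in its single column. Bowtie2 2.2.6 is named in the submitters' processing notes. Of the files the authors deposited, the raw counts, 1 number of di-tags per pair of bins, were used here. The normalised map and the segments were not used.

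Totals in cis and trans were summed per bin. Windows of 1 Mb (a short last piece joined the window before), 250 kb steps and bins with at least 50 di-tags were compared as observed over expected, with expected values from raw trans totals. Intervals are 95% Wilson (shares), exact Poisson (observed over expected) and exact binomial (ratios), for counting error only. The script was tested on simulated data. The rule for named regions was all scaffolds and, for each, its 3 highest and its lowest windows, its 3 richest bins and its 3 highest bin pairs with an arm. No gene was tested, and annotation of release 6 was not used. Alternatives were other corrections, window sizes, a limit of 3 di-tags per bin pair, and leaving out low bins (under 0.25 of the median), the richest bin or a stretch of 2RHet. The scaffolds and questions were chosen with earlier results of these data known. Computation used Python 3.11.15, numpy 2.4.6, pandas 2.3.3, scipy 1.17.1 and matplotlib 3.10.9.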

Additional observations from a re-analysis of the deposited data

How the results depend on the processing

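Under 9 alternatives all 45 values for the own proximal end and all 45 ratios of own to other proximal ends stayed above 1, where 1 of the 9, leaving out the stretch of 2RHet, could change only the values of 2RHet. The median over 5 scaffolds of the own proximal value, 20.0, became 30.4 with trans totals towards the large arms, 60.8 with whole totals, 15.7 per bin pair, 21.2 in 500 kb windows, 12.9 in 2 Mb windows and 17.0 with at most 3 di-tags per bin pair. That of the other proximal ends, 1.31, became 1.52, 1.94, 1.40, 1.42 and 1.12 under the first 5 of these, 1.35 without low bins, 1.77 over other arms only and 1.49 over other chromosomes only. The ratio, 15.3, became 20.1, 31.3, 11.3, 11.6 (2 Mb), 12.8 (at most 3) and 14.8 without low bins. With whole totals 4 scaffolds in place of 5 had their highest window at the own end, 3RHet being the exception, and the median contact between scaffolds rose from 0.925 to 2.91. The median cis share of 31.8% became 28.8% without di-tags within 1 bin.

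The other proximal ends turned from below to above 1 for 2LHet with trans totals towards the large arms (1.07), whole totals (1.38), at most 3 di-tags per bin pair (1.14), other arms only (1.77) and other chromosomes only (1.36), and for XHet with the last 2 (1.42 in both). The interval of the 1.07 for 2LHet, 0.968 to 1.18, included 1. With whole totals XHet turned with 2LHet (2.52), 2RHet (2.11), 3LHet (1.38) and 3RHet (1.78). For changes with the correction the cause was not tested. The other arms only, the other chromosomes only and the stretch of 2RHet were alternatives chosen after seeing the data. No paired analysis was possible because both replicates are pooled in 1 count, and for the same reason no replicate could be left out. Depth limits YHet (60 di-tags) and the pairs with XHet (21 to 143).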
